A study of Drosophila melanogaster and Drosophila melanogaster
Drosophila virilis and Drosophila virilis with 9 samples.

Results

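Cells of gastrulating Drosophila melanogaster embryos that carried mRNA of the pair-rule gene slp1 were compared with cells that carried mRNA of the pair-rule gene odd. Each of 3897 D. melanogaster barcodes with at least 5000 UMIs (unique molecular identifiers, which count captured mRNA molecules) was thinned at random to 5000 UMIs. A barcode with at least 2 slp1 UMIs and 0 odd UMIs in the thinned counts was an slp1 cell, and a barcode with at least 2 odd UMIs and 0 slp1 UMIs was an odd cell. The members were thus chosen by their measured UMIs of slp1 and odd, and neither gene is tested. This gave 681 slp1 cells and 219 odd cells, out of 11329 barcodes in 7 Drop-seq libraries. A further 1769 cells had 0 UMIs of both genes in the thinned counts and served as a background for each side. They are called cells with neither gene, though their full counts held 1159 slp1 UMIs and 1074 odd UMIs.

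Pair-rule genes encode transcription factors that are switched on in stripes across the trunk of the early embryo and hand positional information to the segment polarity genes. slp1 encodes a fork head factor, and together with its neighbour slp2 it represses engrailed and allows wingless expression in the cells just anterior to each parasegment boundary. odd encodes a zinc-finger repressor that is made in stripes of its own and helps to limit where the engrailed stripes form. At gastrulation these patterns change quickly from a double-segment to a single-segment repeat, and a cell's pair-rule content varies with its place within a segment.

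Drop-seq captures single cells in droplets with barcoded oligo-dT beads and counts the 3' ends of their mRNAs. Embryos of stage 6, the onset of gastrulation, were hand-picked after a 1 h egg lay and 2 h 30 min of ageing at room temperature, dissociated, passed through a 20 µm strainer and fixed in 80% methanol. All D. melanogaster embryos were of 1 strain with the alleles y1 and w1118, and it also carried both the Gal4 insertion P{st.2::Gal4} and the reporter insertion P{vnd::dsRED}, so slp1 cells, odd cells and cells with neither gene share that genotype, stage and fixation and came out of the same pools of whole embryos. In 2 of the 7 libraries D. virilis embryos aged 3 h 30 min were processed together with D. melanogaster embryos. The libraries carry replicate numbers, but the labels do not say that they came from separate embryo collections, so p-values measure the spread between these libraries, which may be technical.

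The libraries held 876 to 3247 barcodes and 8855169 to 21429520 UMIs each. No barcode was an slp1 or odd cell in more than 1 library. Summed over pairs of libraries, 66 barcodes of the whole series were shared. Whether a member's barcode also occurred in another library as a non-member was not counted. The sum of full counts over the odd cells of a library was the smallest input of the comparison and ranged between 340359 and 789732 UMIs, against 1012900 to 3428770 UMIs for the slp1 cells. Replicate 3, labelled as D. melanogaster only, also held UMIs on D. virilis genes (0.149% of its UMIs), and every barcode used had at least 90% of its UMIs on D. melanogaster genes.

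On the rule itself, which is a description and not a test, slp1 was read more strongly than odd. slp1 cells had a median of 4 slp1 UMIs at 5000 UMIs per cell and a maximum of 15, while odd cells had a median of 2 odd UMIs and a maximum of 7. Just inside the limits lay 201 cells with exactly 2 slp1 UMIs and 132 cells with exactly 2 odd UMIs, and just outside lay 445 cells with 1 slp1 and 0 odd UMIs and 401 cells with 1 odd and 0 slp1 UMIs. As a measure of free mRNA, few UMIs of either gene were found in cells of the other species. In the 1209 cells of D. virilis, thinned likewise to 5000 UMIs, 1 UMI or more on the D. melanogaster genes was found in 1.65% for slp1 and 0.744% for odd. The slp1 share rested mostly on replicate 1, with 16 of 642 cells, against 4 of 567 cells in replicate 2. At least 2 UMIs were found in 0.0827% for slp1 and in 0 for odd, which allows a share of up to 0.248%. The median full depth of those D. virilis cells was 7812.5 and 11409 UMIs in the mixed libraries, and such shares and limits cover counting error only.

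The share of each kind of cell was similar in all 7 libraries. slp1 cells made up 17.5% ± 2.00 of D. melanogaster cells (SD, n = 7 libraries, 45 to 152 cells each), and odd cells 5.71% ± 0.560 (15 to 42 cells each). Cells with neither gene made up 45.2% ± 4.25. Both genes were found together in 9.84% ± 2.31 of cells, which belong to neither side. At least 2 UMIs of both genes were found in 80 cells, where 80.8 would be found if slp1 and odd occurred independently within each library. The log2 odds ratio of that overlap ranged over libraries between -1.03 and 0.90. No doublet caller was run. The requirement for 0 UMIs of the other gene holds in the thinned counts only, so cells with both genes can remain on either side. In the full counts that were summed, slp1 cells held 524 odd UMIs beside 9193 slp1 UMIs. The odd cells held 210 slp1 UMIs beside 1189 odd UMIs.

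**Figure D1:**
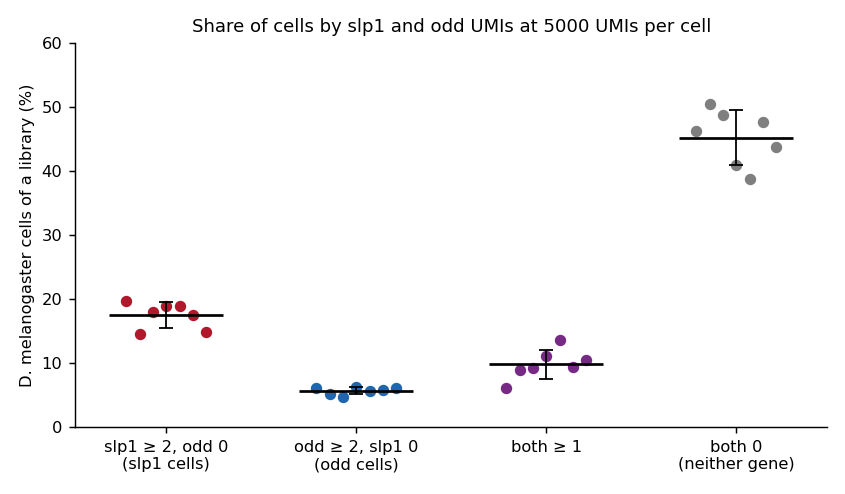
Share of the D. melanogaster cells of each library, in percent, by slp1 and odd UMIs after thinning to 5000 UMIs; points are the 7 libraries, lines the mean and bars the SD. slp1 cells outnumber odd cells in every library, at 17.5% ± 2.00 against 5.71% ± 0.560.

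Patterning genes were among the largest differences between the 2 sides. Higher in slp1 cells were slp2, the segment polarity genes wg and gsb, the pair-rule gene prd, and the Toll family receptors Toll-6 and 18w. Lower in slp1 cells, and so higher in odd cells, were ftz, mid, and drm and sob, which are close relatives of odd. Full counts were summed per library and side and compared with edgeR's quasi-likelihood test with library as a block and Benjamini-Hochberg adjustment. Of 4912 genes tested, 76 passed an adjusted p of 0.05 (1.55%), of which 28 (0.57%) were higher and 48 (0.977%) lower in slp1 cells, and 36 of the 76 changed more than 2-fold. The 2 sets of 7 libraries did not overlap at all for 14 genes (0.285%).

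That count depended on which UMIs the thinning happened to keep, because the thinning decides which cells enter each side. With 5 random thinnings the count was 76, 53, 50, 32 and 69, and 20 genes passed in all 5 of them. Of those 20, slp2, gsb, wg, pxb, Toll-6 and comm were higher in slp1 cells, and fkh, mid, sob, ftz, ken, drm, CG14427, mirr, Abd-B, toc, trn, chrb, CR43432 and scyl were lower. Without replicate 3, the library with the most cells on the slp1 side, the count was 49, and without library as a block it was 35. Without the block, eve, h, Tollo, ken, sca, SoxN, Doc3, Abd-B, srp, Dfd, Ilp4 and pgc, which are described below with the block, no longer passed. With DESeq2 in place of edgeR, eve, h, SoxN, Doc3, peb, hkb, Abd-B, Dfd and pgc, described below as passing, did not pass. The 2 mixed-species libraries alone gave 53 genes and the 5 single-species libraries alone gave 54.

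slp2, the sister gene of slp1 and likewise a fork head factor, differed most. The lowest, median and highest library had 69.0, 102 and 130.3 slp2 UMIs per 1000000 UMIs (CPM) in slp1 cells, against 0, 2.94 and 13.8 CPM in odd cells. Every library was higher in slp1 cells than any was in odd cells, where only 16 slp2 UMIs were counted in all. The log2 change was 4.48 (SE 0.277, adjusted p = 5.53e-11), or 22.4-fold, and over the 5 thinnings it lay between 4.00 and 5.41. In the BDGP6.54 annotation slp1 lies on chromosome 2L at 3825675 to 3827099 and slp2 at 3836840 to 3839185 on the same strand, 9740 bp further on with no annotated gene between them. A slp2 UMI was found in 28.9% ± 8.66 of slp1 cells and 1.41% ± 2.61 of odd cells at 5000 UMIs, against 0.496% of D. virilis cells.

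The relatives of odd showed the opposite pattern. sob (sister of odd and bowl), which encodes a zinc-finger protein closely related to Odd, had 2.96, 4.73 and 12.8 CPM in the lowest, median and highest library in slp1 cells, against 17.6, 26.6 and 41.8 CPM in odd cells. drm, a short zinc-finger protein of the same family that acts in gut and leg patterning, had 40.7, 56.5 and 94.8 CPM in slp1 cells, against 98.8, 153.7 and 349.6 CPM in odd cells. For both genes the ranges of the 2 sides did not overlap. The log2 change was -2.03 for sob (SE 0.214, edgeR adjusted p = 8.35e-07) and -1.44 for drm (SE 0.106, adjusted p = 1.73e-09). The fourth family member, bowl, which encodes a zinc-finger factor of the terminal regions and gut, did not pass (log2 change -0.29, SE 0.273, adjusted p = 0.962). Thus 2 of 3 relatives of odd passed, both lower in slp1 cells, where 0.977% of all genes tested were lower. The family median was -1.44, beside -0.0027 over all genes tested. odd lies on chromosome 2L at 3604224 to 3606756, with sob at 3578013 to 3580769 on the same strand and no coding gene in the 23454 bp between them, and drm at 3539247 to 3548423 on the other strand. bowl lies apart at 3771700 to 3784121.

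Of the other pair-rule genes, ftz was the most different. ftz encodes a homeodomain factor that acts in alternate parasegments and activates engrailed there. Its lowest, median and highest level was 69.1, 91.3 and 135.1 CPM in slp1 cells, against 236.9, 375.3 and 519.2 CPM in odd cells. The sides did not overlap, and ftz was lower in slp1 cells by 1.93 on the log2 scale (log2 change -1.93, SE 0.100, edgeR adjusted p = 2.37e-12), a 3.82-fold difference. A ftz UMI was found in 22.9% ± 6.77 of slp1 cells and 50.5% ± 10.7 of odd cells, against 1.32% of D. virilis cells.

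prd, a Pax family factor that activates engrailed and wingless, moved the other way. It had 77.0, 106.3 and 116.4 CPM in slp1 cells, against 29.9, 43.0 and 90.5 CPM in odd cells, and was higher in slp1 cells in 7 of 7 libraries although the ranges overlapped through 1 odd-cell library. Its log2 change was 1.15 (SE 0.162, adjusted p = 7.22e-05), and it passed in 3 of 5 thinnings, with changes of 0.70 to 1.15. The annotation places an antisense RNA over prd, and whether the authors' counting used strand is not given in the sources used here.

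eve, a homeodomain repressor that shares with ftz the role of placing engrailed stripes, had 9.01, 18.8 and 25.9 CPM in slp1 cells, against 22.8, 25.9 and 68.9 CPM in odd cells. It passed at -0.90 on the log2 scale (SE 0.208, edgeR adjusted p = 0.0185), but not without replicate 2, 3, 6 or 7 (log2 change -0.74 to -0.89) and not without the library block (-0.94). An antisense RNA is annotated over eve as well. h, a bHLH repressor, passed at 0.39 (SE 0.0994, adjusted p = 0.0410) in 1 of 5 thinnings only, and among the 5 the change ranged between 0.02 and 0.39. run, a Runt family factor, did not pass (0.47, SE 0.128, adjusted p = 0.0704), though it did without replicate 2 (0.55) or replicate 7 (0.62). opa, a zinc-finger factor that times the change to single-segment patterning, did not pass either, at -0.12 (SE 0.0838, adjusted p = 0.915). In all, 3 of 7 pair-rule genes were higher in slp1 cells (slp2, prd, h), 2 were lower (ftz, eve), and the median change was 0.39. Over all genes tested, 0.57% were higher and 0.977% lower.

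Segment polarity genes were found on both sides. wg encodes the Wnt ligand Wingless, which is made just anterior to the parasegment boundary. It had 64.0, 86.6 and 105.8 CPM in the lowest, median and highest library in slp1 cells, against 6.46, 27.3 and 58.8 CPM in odd cells. The ranges did not overlap, and the log2 change was 1.67 (SE 0.200, edgeR adjusted p = 6.43e-06). gsb, a Pax factor that maintains wg, had 52.8, 107.9 and 121.2 CPM in slp1 cells, against 2.94, 12.7 and 25.9 CPM in odd cells. It too had separate ranges, with a log2 change of 2.73 (SE 0.209, adjusted p = 2.27e-09), which lay between 1.63 and 2.83 over the thinnings. A wg UMI was found in 30.0% ± 4.39 of slp1 cells and 6.03% ± 5.57 of odd cells, and a gsb UMI in 25.2% ± 2.19 of slp1 cells and 4.45% ± 3.32 of odd cells. Both genes were seen in under 1% of D. virilis cells (0.414% for wg and 0.0827% for gsb).

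mid, a T-box factor known to repress wg outside its stripe, was on the odd side. It had 18.01, 31.8 and 48.6 CPM in slp1 cells, against 107.6, 124.9 and 158.7 CPM in odd cells, again without overlap. The log2 change was -2.07 (SE 0.158, edgeR adjusted p = 2.27e-09). en, the homeodomain factor of the posterior compartment, had 9.61, 21.6 and 53.0 CPM in slp1 cells, against 10.8, 32.5 and 67.6 CPM in odd cells, and its log2 change, -0.45 with an SE of 0.284 (adjusted p = 0.880), did not pass. en did pass in the mixed-species libraries alone (-1.64, adjusted p = 0.00366) and without replicate 4 (-0.93), but was -0.02 in the single-species libraries alone. hh, the ligand made in the same cells as en, had a change of -0.40 (SE 0.275, adjusted p = 0.914).

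The genes that receive or relay the Hedgehog and Wnt signals did not pass. The log2 change was -0.14 for the Hedgehog receptor gene ptc, -0.27 for its partner smo, -0.10 for the Hedgehog pathway transcription factor ci, 0.11 for the Wnt receptor gene fz and 0.05 for the Wnt inhibitor gene nkd. ptc passed in 1 of 5 thinnings, where the changes were -0.35 to -0.14. inv, gsb-n, H15, Wnt6 and Wnt10 had too few UMIs to be tested. Of 15 segment polarity genes, 10 were tested, 2 were higher in slp1 cells (wg, gsb), 1 was lower (mid), and the median change was -0.12. The shares over all genes tested were 0.57% higher and 0.977% lower.

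**Figure D2:**
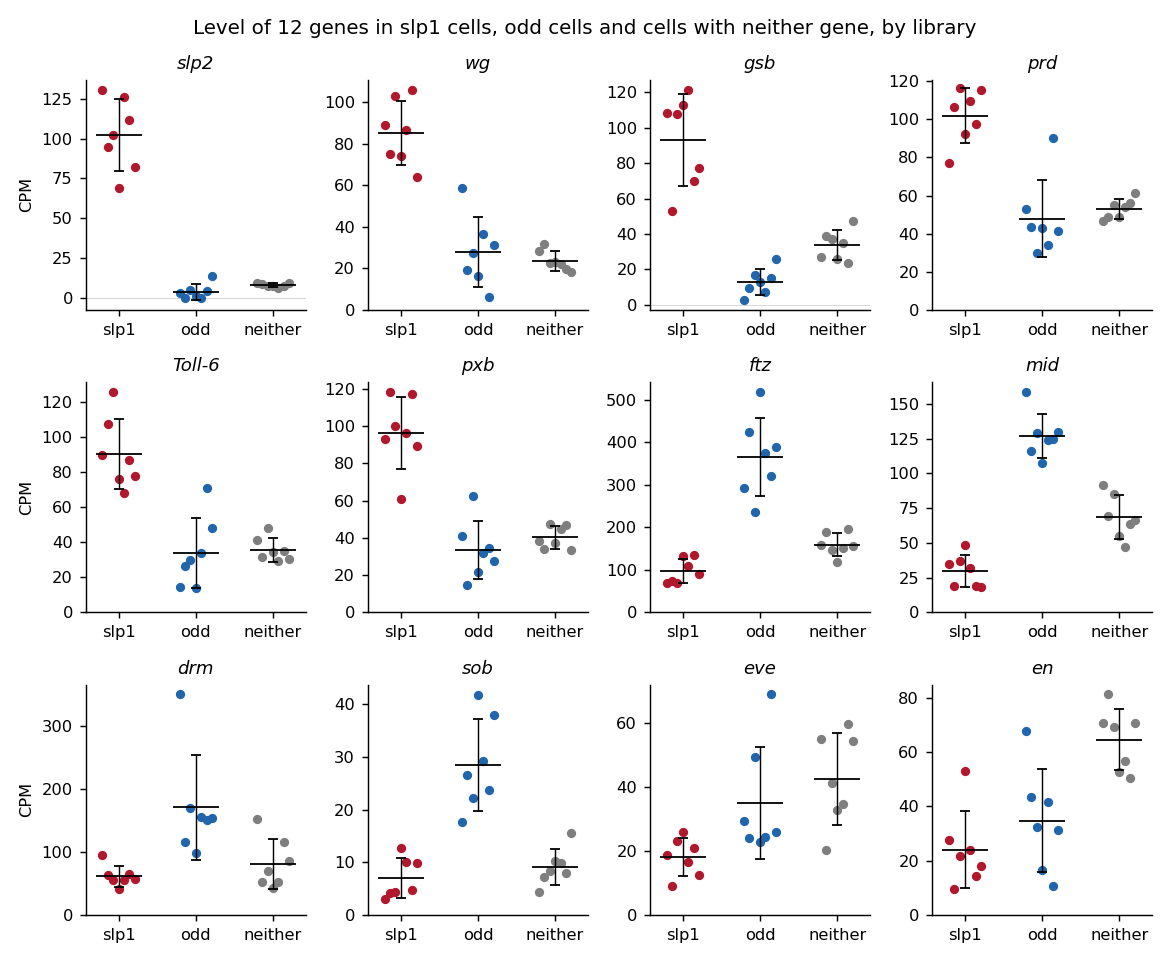
Level in UMIs per 1000000 UMIs (CPM, linear axes) of 12 genes in slp1 cells, odd cells and cells with neither gene; points are the 7 libraries, lines the mean and bars the SD. slp2, wg and gsb in slp1 cells, and ftz, mid, drm and sob in odd cells, stand apart from the other side in every library.

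Toll family receptors with a leucine-rich extracellular part are made in stripes under pair-rule control and steer cell rearrangement as the germ band extends. Toll-6 had 68.5, 86.9 and 126.0 CPM in slp1 cells, against 13.9, 29.9 and 71.1 CPM in odd cells. It was higher in slp1 cells in 7 of 7 libraries with a single overlapping value, and the log2 change was 1.45 (SE 0.199, edgeR adjusted p = 5.39e-05). 18w had 39.1, 46.8 and 75.8 CPM in slp1 cells, against 17.6, 19.5 and 41.4 CPM in odd cells, at 1.05 (SE 0.206, adjusted p = 0.00421), and did not pass without replicate 3 (0.84) or in 2 of 5 thinnings, where the changes were 0.73 to 1.05. Tollo passed at 0.59 (SE 0.123, adjusted p = 0.00759) in 1 of 5 thinnings only. Ten-m, a teneurin adhesion protein, was at -0.04 (SE 0.119, adjusted p = 1.00), and Toll-7 had too few UMIs to be tested. So 3 of the 4 striped surface receptor genes tested were higher in slp1 cells, with a median of 0.82, where 0.57% of all genes tested were higher. Of these 3, only Toll-6 passed in all 5 thinnings.

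**Figure D3:**
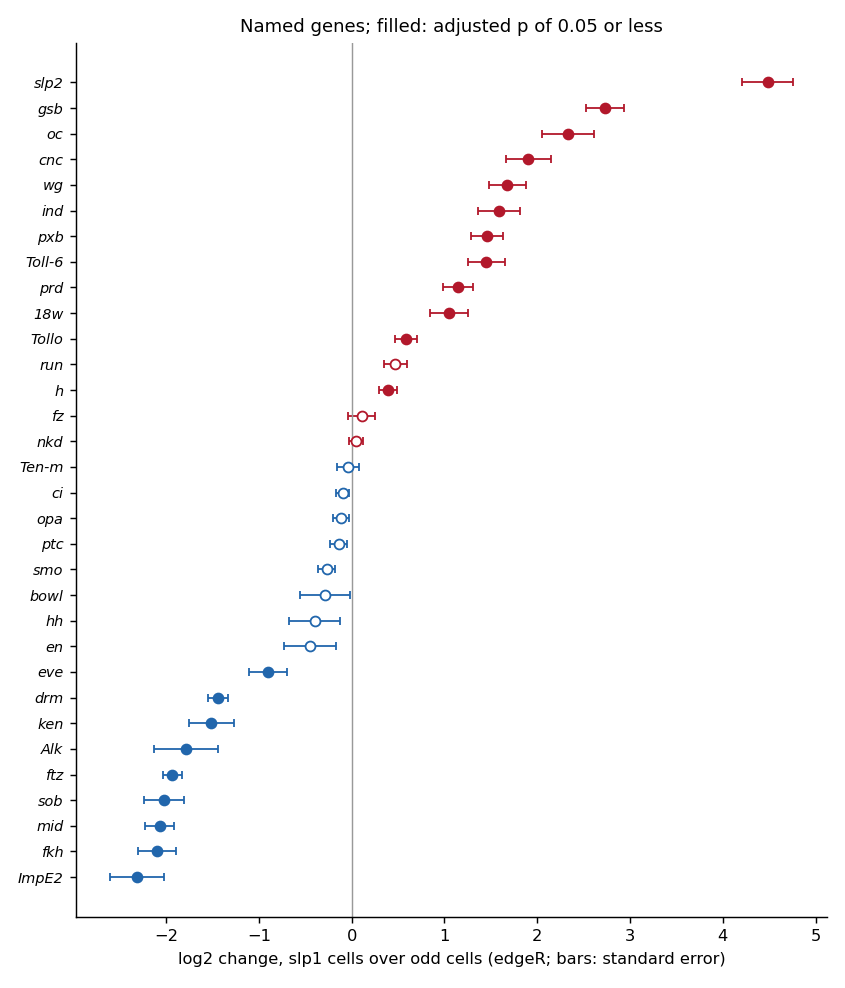
log2 change, slp1 cells over odd cells, of the genes of the pair-rule, odd family, segment polarity and striped surface receptor lists and of the 8 largest changes in each direction; bars are standard errors, and filled points passed an adjusted p of 0.05. slp2 lies at the top at 4.48 and ImpE2 at the bottom at -2.32.

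Each side was also compared with the cells that had neither gene in the thinned counts. These 2 comparisons share the cells with neither gene, so their values are given side by side and not set against each other as independent results. Between slp1 cells and cells with neither gene, 434 of 6282 genes passed (6.91%), with 169 (2.69%) higher and 265 (4.22%) lower in slp1 cells, and 83 genes (1.32%) did not overlap between the 2 sets of libraries. Between odd cells and cells with neither gene, 167 of 5736 genes passed (2.91%), with 75 (1.31%) higher and 92 (1.6%) lower in odd cells, and 41 genes (0.715%) did not overlap. The second count was 104 without replicate 7, and without the library block the counts were 214 for slp1 cells and 51 for odd cells. The odd sums hold fewer UMIs, so the size of these counts cannot be compared between sides.

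For wg the log2 change against cells with neither gene was 1.82 in slp1 cells (SE 0.113, edgeR adjusted p = 1.11e-08) and 0.14 in odd cells (SE 0.218, adjusted p = 0.876). Median wg levels were 86.6 CPM in slp1 cells, 27.3 CPM in odd cells and 22.4 CPM in cells with neither gene. slp2 was likewise at 3.54 in slp1 cells (adjusted p = 2.46e-13) and -0.99 in odd cells (adjusted p = 0.320), prd at 0.92 in slp1 cells (3.73e-08) and -0.23 in odd cells (0.639), and Toll-6 at 1.31 in slp1 cells (1.11e-08) and -0.14 in odd cells (0.891). These 4 genes thus stood above the cells with neither gene on the slp1 side and did not pass on the odd side. gsb passed on both sides in opposite directions, at 1.41 in slp1 cells (adjusted p = 3.40e-06) and -1.30 in odd cells (0.000370).

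Among the genes higher in odd cells, ftz was at -0.75 in slp1 cells (edgeR adjusted p = 0.000376) and 1.18 in odd cells (2.43e-06). mid was at -1.19 in slp1 cells (3.21e-05) and 0.88 in odd cells (7.67e-06). Both therefore passed on both sides, in opposite directions. drm did so as well, at -0.35 in slp1 cells (0.0455) and 1.06 in odd cells (3.41e-06), but its value in slp1 cells passed in only some of the sets without 1 library, and neither value passed without the library block (-0.44 in slp1 cells and 1.03 in odd cells). sob was at -0.43 in slp1 cells (0.256) and 1.62 in odd cells (1.17e-05).

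eve was lower in slp1 cells than in cells with neither gene (-1.15, adjusted p = 3.21e-05), while its value in odd cells was -0.28 (0.583). 18w was at 0.07 in slp1 cells (0.812) and passed at -0.95 in odd cells (0.00713). en was lower on both sides, at -1.44 in slp1 cells (edgeR adjusted p = 0.000127) and -1.02 in odd cells (0.000639), with medians of 21.6 CPM in slp1 cells, 32.5 CPM in odd cells and 69.1 CPM in cells with neither gene. hh was at -1.09 in slp1 cells (0.000225) and at -0.73 in odd cells (0.0497), where it passed in 2 of the 7 sets without 1 library and did not pass without the library block (-0.72). opa was higher on both sides, at 0.38 in slp1 cells (0.000139) and 0.49 in odd cells (0.000678).

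**Figure D4:**
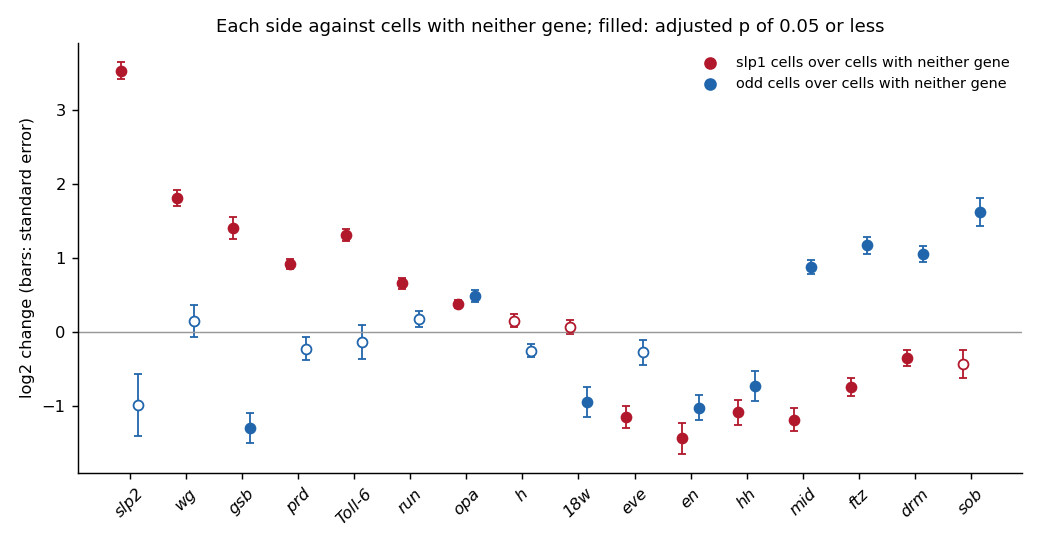
log2 change of 16 genes in slp1 cells (red) and in odd cells (blue), each over cells with neither gene; bars are standard errors, and filled points passed an adjusted p of 0.05. The sides point apart for gsb, mid, ftz and drm, and both lie below 0 for en and hh and above 0 for opa.

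The slp1 cells were not uniform, and some shares moved with the number of slp1 UMIs while others changed little. This is a description over pooled cells with no test. A slp2 UMI was found in 14.4% of the 201 slp1 cells with exactly 2 slp1 UMIs, 24.0% of the 129 with 3, and 39.6% of the 351 with 4 or more. An en UMI was found in 11.4%, 15.5% and 3.70% of the same cells, and the share with UMIs of 2 or more dorsal ectoderm genes was 21.4%, 21.7% and 5.70%. wg was found in 20.4%, 34.1% and 35.3%. In odd cells a ftz UMI was found in 46.2% of the 132 cells with exactly 2 odd UMIs, 55.2% of the 58 with 3 and 69.0% of the 29 with 4 or more. For drm the shares of these odd cells were 48.5%, 46.6% and 55.2%, and for sob 14.4%, 12.1% and 17.2%.

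Within the 681 slp1 cells, 209 had a wg UMI and 56 an en UMI, and 11 had both, where 17.2 would be found if the 2 occurred independently. slp2 and wg were found together in 74 slp1 cells, against 61.1 if independent, and sob and drm in 17 odd cells, against 15.1. wg and prd were found together in 85 slp1 cells, against 69.7 if independent, and in 0 odd cells, against 2.43. eve and ftz were found together in 23 slp1 cells, against 11.5, and in 9 odd cells, against 13.4. prd and run were found together in 117 slp1 cells, against 104.0, and in 24 odd cells, against 15.3. h and run were found together in 143 slp1 cells, against 165.9, and in 50 odd cells, against 39.8. Of 10 pairs counted, 8 lay above the number for independence in slp1 cells, 5 in odd cells and 7 in cells with neither gene. In cells with neither gene, wg and prd were found together in 38 cells, against 29.7, and prd and run in 131, against 93.8. There wg and en were found together in 19 cells, against 27.4, and eve and ftz in 47, against 64.8. No test was made. A cell with 0 UMIs of a gene at this depth may still express it, so these counts are not shares of expressing cells.

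The cells with only 1 UMI of slp1 or odd, which lie outside the rule, were compared in the same way. Of the 16 genes of largest change, 16 had the same direction between these cells and 11 passed. The log2 change was 2.36 for slp2, 1.32 for gsb, -0.63 for ftz, -0.54 for mid, -1.52 for sob and -1.09 for drm, all nearer 0 than between the members, and 1.77 for wg, which was not. The other 5 did not pass, with ind at 0.02, fkh at -0.38, ImpE2 at -0.40, Alk at -0.41 and ken at -0.57 (edgeR adjusted p between 0.884 and 1.00). They hold 445 cells on the slp1 side and 401 on the odd side and are other cells than the members, but they come from the same libraries.

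Regional gates were then set on both sides to read where in the embryo the cells lay. A neurogenic ectoderm gate (UMIs of at least 2 of sog, brk, SoxN and vnd at 5000 UMIs) held 51.9% ± 3.89 of slp1 cells and 32.0% ± 9.21 of odd cells (SD, n = 7 libraries), and 7 of 7 libraries were higher in slp1 cells. The mean difference of 19.9 percentage points had an exact two-sided sign-flip permutation p = 0.0156, the smallest that 7 libraries allow, and 0.0781 after Benjamini-Hochberg adjustment over 5 gates. A mesoderm gate (sna and twi) held 20.6% ± 2.78 of slp1 cells and 15.1% ± 4.42 of odd cells (exact permutation p = 0.0312, adjusted 0.0781), and the sign of that difference turned under another thinning (-0.462). A dorsal gate (2 or more of tup, ush, zen and the genes Doc1 to Doc3) held 14.1% ± 3.77 of slp1 cells and 17.1% ± 3.61 of odd cells (adjusted exact permutation p = 0.117). A head gate (2 or more of btd, ems, hbn, oc) held 3.69% ± 1.56 of slp1 cells and 1.71% ± 2.52 of odd cells (0.117). A posterior gate (2 or more of Abd-B, byn, cad) held 0.659% ± 0.897 of slp1 cells and 1.88% ± 2.54 of odd cells (0.344). None of the 5 gates passed after adjustment. With cells of at least 3000 UMIs thinned to 3000, both the dorsal difference (-12.1 points, adjusted exact permutation p = 0.0391) and the neurogenic difference (17.8 points, 0.0391) passed. Median UMIs per cell were 13462 ± 3168 in slp1 cells and 13613 ± 4196 in odd cells (exact permutation p = 0.938).

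**Figure D5:**
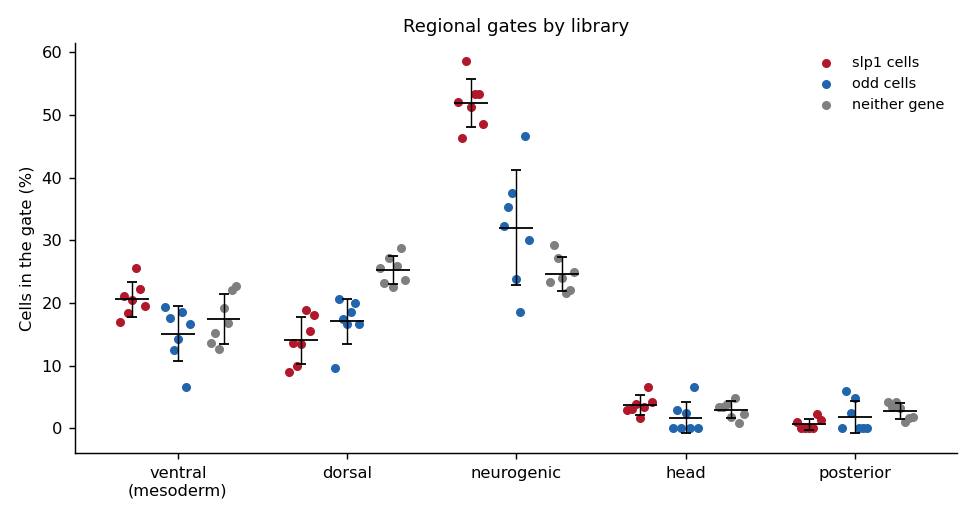
Share of slp1 cells, odd cells and cells with neither gene in 5 regional gates, in percent; points are the 7 libraries, lines the mean and bars the SD. The neurogenic gate holds more slp1 cells than odd cells in all 7 libraries, at 51.9% ± 3.89 against 32.0% ± 9.21.

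Genes of these regions were among those that differed. Of 8 neurogenic ectoderm genes tested, 3 were higher in slp1 cells and 0 lower, with a median of 0.36, where 0.57% of all genes tested were higher. ind, the homeodomain factor of the intermediate neural column, was at 1.59 (SE 0.222, edgeR adjusted p = 6.28e-05), with 31.9, 46.0 and 84.9 CPM in the lowest, median and highest library in slp1 cells, against 0, 12.9 and 29.4 CPM in odd cells. The ranges did not overlap, though ind lies inside another annotated gene on the same strand. sca, which encodes a secreted protein of neural precursor spacing, was at 0.63 (adjusted p = 0.00479), and SoxN, a Sox factor of the neuroectoderm, at 0.56 (0.0149), where SoxN did not pass without replicate 3 (0.47) or 5 (0.55). These 3 genes passed in 4 (ind), 3 (sca) and 2 (SoxN) of 5 thinnings. The summed level of this list was 878 to 1804 CPM in slp1 cells and 548 to 1521 CPM in odd cells.

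Dorsal ectoderm genes lay on the other side. Of 9 tested, 0 were higher and 3 lower in slp1 cells, where 0.977% of all genes tested were lower. All 9 had negative changes, and the median was -0.82. The T-box genes Doc2 and Doc3, which mark the dorsal ectoderm and amnioserosa, were at -1.07 (edgeR adjusted p = 0.00190) and -0.82 (0.0287), and peb, a zinc-finger gene of the amnioserosa, at -2.08 (0.00488). Doc2 passed in 3 of 5 thinnings and the others in 2, peb was lower in only 5 of 7 libraries and did not pass without replicate 3 (-1.67), and Doc3 passed in 2 of the 7 sets without 1 library. The summed level of the dorsal list was 177 to 299.7 CPM in slp1 cells, 239 to 1032 CPM in odd cells and 457 to 815 CPM in cells with neither gene.

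Markers of the posterior terminal region and gut were also lower in slp1 cells. Of 7 listed, 5 were tested and 4 passed, with a median of -1.26, where 0.977% of all genes tested were lower. Against cells with neither gene all 7 were tested. In slp1 cells 0 were higher and 6 lower, with a median of -1.71, where 4.22% of all genes tested were lower. In odd cells 0 were higher and 2 lower, with a median of -0.46, where 1.6% of all genes tested were lower. fkh, the fork head factor of the gut primordia, had 2.40, 13.4 and 27.6 CPM in slp1 cells, against 10.8, 69.6 and 104.1 CPM in odd cells, so that the change was -2.10 on the log2 scale (edgeR, SE 0.204, adjusted p = 2.25e-07). The ranges overlapped, but slp1 cells were lower within each of the 7 libraries. hkb, a terminal gap gene (-1.45), and srp, a GATA factor of the endoderm and blood (-1.26), passed as well, but neither did without replicate 3 (hkb -1.22, srp -0.96), and hkb passed in 1 of 5 thinnings. Abd-B, the most posterior Hox gene, was at -0.92 (edgeR adjusted p = 0.0165) but lower in only 5 of 7 libraries. Its log2 ratio was 1.40 in replicate 1 and 0.23 in replicate 5. Abd-B passed in all 5 thinnings, and did not pass without replicate 2, 3 or 7 (-0.65 to -0.92). Against cells with neither gene, whose median fkh level was 80.6 CPM, fkh was at -2.53 in slp1 cells (adjusted p = 2.05e-07) and -0.46 in odd cells (0.405).

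On the anterior side, only 3 of 9 head genes had enough UMIs to be tested. Of these 3, 2 were higher in slp1 cells, with a median of 1.90, where 0.57% of all genes tested were higher. A gene can enter the test through the side where it is high, so these values do not describe the whole list. Against cells with neither gene, 9 were tested in slp1 cells, with 2 higher, 1 lower and a median of -0.0077. In odd cells 8 were tested, with 0 higher, 5 lower and a median of -1.25. oc, the orthodenticle homeodomain factor of the anterior head, had 23.1, 32.5 and 67.7 CPM in slp1 cells, against 3.90, 8.62 and 11.8 CPM in odd cells, with no overlap, and the log2 change was 2.33 (SE 0.279, edgeR adjusted p = 6.43e-06). Against cells with neither gene oc was at 0.26 in slp1 cells (adjusted p = 0.484) and -2.12 in odd cells (1.17e-05). cnc, a bZIP factor of the labral and mandibular head segments, was at 1.90 (SE 0.245, adjusted p = 1.84e-05), with medians of 74.3 CPM in slp1 cells and 12.1 CPM in odd cells. Both passed in 4 of 5 thinnings, and cnc shares its place with other annotated genes, 1 of them on the same strand. The Hox gene Dfd, which patterns the mandibular and maxillary segments, passed at 1.37 (SE 0.330, adjusted p = 0.0273), but in only 1 of the 7 sets without 1 library and 3 of 5 thinnings.

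The stripe genes were read again within 1 region and with sets of cells left out. Within the neurogenic gate alone, which held 357 slp1 cells and 68 odd cells, 14 of 3597 genes tested passed. slp2 (3.66), wg (2.17), gsb (2.61), Toll-6 (1.74), prd (1.42), ftz (-1.73), mid (-2.16) and drm (-1.48) were all among them. In cells outside that gate 48 of 3899 genes tested passed, with slp2 at 5.26, wg at 1.16, ftz at -2.14, mid at -2.38 and drm at -1.33. gsb had too few UMIs to be tested there. When cells with a UMI of any of 6 head genes were left out, 94 of 4420 genes tested passed, with wg at 1.93 and ftz at -2.15. ind was at 0.80 within the neurogenic gate and did not pass there, and SoxN, which is part of that gate's rule, was at 0.03.

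The remaining genes of the 8 largest changes in each direction belong to no pattern list. pxb had 61.0, 96.0 and 118.3 CPM in slp1 cells, against 14.5, 31.7 and 62.5 CPM in odd cells, and the log2 change was 1.46 (SE 0.169, edgeR adjusted p = 4.15e-06). A long non-coding RNA is annotated over pxb on the same strand. ImpE2, an ecdysone-inducible gene, had 5.67, 13.7 and 64.2 CPM in slp1 cells, against 6.46, 107.6 and 213.5 CPM in odd cells, lower in slp1 cells within each of the 7 libraries at -2.32 (SE 0.288, adjusted p = 1.06e-05), and it passed in 4 of 5 thinnings. Alk, a receptor tyrosine kinase gene of the visceral mesoderm, was at -1.79 (SE 0.341, adjusted p = 0.00313), with medians of 5.59 CPM in slp1 cells and 26.4 CPM in odd cells, and had enough UMIs to be tested in only 2 of 5 thinnings. ken, a BTB zinc-finger repressor gene, was at -1.51 (SE 0.243, adjusted p = 0.000390), with medians of 11.9 CPM in slp1 cells and 48.4 CPM in odd cells.

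Further genes passed in all 5 thinnings and were named after their values were seen. mirr, an Iroquois homeodomain factor, averaged 37.0 ± 11.5 CPM in slp1 cells and 93.2 ± 42.8 CPM in odd cells (SD, n = 7), with a log2 change of -1.31 (edgeR adjusted p = 2.25e-07). CG14427, which has no given name, averaged 44.2 ± 14.3 CPM in slp1 cells and 119 ± 47.7 CPM in odd cells, at -1.40 (2.25e-07). The paired genes chrb and scyl, whose products restrain TOR signalling, were at -0.70 (8.34e-05) and -0.52 (0.000157), both lower in slp1 cells in 7 of 7 libraries. trn, a leucine-rich repeat surface protein gene, was at -0.70 (0.000342). comm, which encodes a sorting receptor known from axon guidance, was higher in slp1 cells at 0.58 (0.010), in 6 of 7 libraries.

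Other lists showed few or no calls, where 1.55% of all genes tested passed. Of 7 trunk gap genes tested, 0 passed, with a median of -0.11, and so did 0 of 6 proneural and Notch pathway genes (0.03), 0 of 6 EGF pathway genes (0.02) and 0 of 6 cell cycle genes (-0.0044). Among the 4 members named from each of these lists, the change farthest from 0 was -0.52 for the gap gene kni (edgeR adjusted p = 0.203), -0.23 for the neural bHLH gene dpn (0.914), -0.61 for rho, whose protease releases the EGF ligand (0.131), and -0.11 for the cyclin gene CycB (0.789). rho passed without replicate 4 (-0.78). kni passed among cells in none of 4 gates (-1.19, adjusted p = 0.000948), without cells in the mesoderm gate (-1.08, 0.000819) and without cells with a UMI of a head gene (-0.87, 0.00814). Of 7 mesoderm genes 1 passed, Ilp4, which encodes an insulin-like peptide, at 0.33 (0.0130), and it passed in 1 of 5 thinnings. Of 3 germ cell genes tested, pgc, which silences transcription in pole cells, passed at 1.79 (0.00203), in 2 of 5 thinnings and not without replicate 4 (1.26). Median pgc levels were 27.4 CPM in slp1 cells, 10.8 CPM in odd cells and 326.7 CPM in cells with neither gene. Of 5 Hox genes tested 1 was higher and 1 lower, and srp was the only gene of the yolk and blood list with enough UMIs to be tested. Genes or non-coding RNAs are annotated on the opposite strand of ptc, ci, nkd, smo, fz, Ten-m, Abd-B, sca, pgc, Ilp4, rho, CG14427 and toc as well, so their UMIs could be shared with those of a neighbour.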

How the data were processed

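The authors deposited 1 table of raw UMI counts for each of 7 Drop-seq libraries, with genes in rows and cell barcodes in columns. Per the submitters' processing notes, build BDGP6 and the tools STAR and HTSeq were used, with no roles or versions given. 2 bulk libraries were not used here, since they hold no single cells. The authors' table of 1297 chosen cells served only as a list of barcodes.

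Barcodes with at least 5000 UMIs and at least 90% of them on D. melanogaster genes were thinned without replacement to 5000 UMIs to set the sides. Full counts were then summed per library and side and tested with edgeR 4.0.16 (R 4.3.3): quasi-likelihood F tests after filterByExpr and scaling by TMM, with library as a block because both sides of a library come from the same pool, and Benjamini-Hochberg adjustment over all genes tested. slp1 and odd were left out of the calls. A side needed at least 5 cells in a library. CPM are UMIs per 1000000 UMIs of a sum. Gate shares were compared by exact sign-flip permutation over 7 libraries. In counts simulated for this comparison (4816 genes), 37 of 49 genes changed 1.5-fold and 45 of 48 changed 2-fold were called, with 6 of 4630 unchanged genes called. The simulation used an assumed spread between sums, equal for all genes, and a library effect shared by both sides. Neither the thinning nor the choice of cells was simulated, so these shares do not measure the power in the real data.

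The members, gene lists and tests were chosen with earlier results of these data known. Genes were named as all members of the pair-rule, odd family, segment polarity and striped surface lists, up to 4 members of each other list (largest changes that passed, else the most abundant), and the 8 largest changes in each direction among genes that passed, moved the same way in every library and reached 10 CPM in the higher side. Gene positions and overlaps are from the BDGP6.54 annotation. Alternatives covered scaling, filters, DESeq2 1.42.0, the UMI limits, the thinning, the regions and each library.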

Additional observations from a re-analysis of the deposited data

Results flagged for a closer look

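The log2 ratio of CPM + 1 between slp1 cells and odd cells was examined by library for 59 genes, beside the differences in the 5 gates and in median UMIs. For 8 of the 59 genes 1 library stood far from the other 6. Chance alone would do so for about 1 in 20 genes if the ratios were normally distributed. Ratios with 0 or few UMIs on a side need not be, so whether 8 of 59 is an excess was not tested. ind was 5.45 in replicate 5 (median of the 7 libraries 1.5), the library in which odd cells had 0 ind UMIs, and Dfd was 4.92 in replicate 6 (median 1.37), where odd cells had 0 Dfd UMIs. hkb was 2.65 in replicate 2, with a median of -1.42, so that library ran against the others. h was -0.28 in replicate 3 (median 0.53). In replicate 7, nkd was -0.44 (median 0.11) and smo was -0.71 (median -0.23). dpn was 1.43 in replicate 5 (median -0.42) and CycE 0.79 in replicate 6 (median -0.02).

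Replicate 3 is labelled as D. melanogaster alone, yet held 29225 UMIs on D. virilis genes, 0.149% of its UMIs, with 1 barcode of at least 1000 of them. The other single-species libraries list no D. virilis genes.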

How the results depend on the processing

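Between slp1 and odd cells 76 of 4912 genes tested passed. This count was 49 of 4912 with DESeq2, 137 of 12926 with no filter on low counts and 45 of 2201 from thinned sums. It was 30 of 4020 with at least 3 and 19 of 5262 with exactly 1 UMI of the gating gene. From 3000 UMIs per cell it was 41 of 4845, from 10000 UMIs 47 of 5188, and among the chosen cells 34 of 3883. Other thinnings gave 50 of 5114 and 32 of 5094. Within the neurogenic gate it was 14 of 3597, and outside it 48 of 3899 (the last 4 chosen after seeing the data). Without 1 library it was 49 to 87. The number of genes tested differs between these settings, so the counts alone do not give the direction of a change in share. Between 3000 and 5000 UMIs edgeR called 0 of 528 genes (37 at an unadjusted p under 0.05, 4 libraries). Without the library block as pairing, it was 35. Against cells with neither gene, no filter gave 680 genes for slp1 cells and 336 for odd cells, no block gave 214 and 51, and leaving out 1 library gave 311 to 411 and 104 to 186. From 3000 UMIs the gate differences were -12.1 points (dorsal) and 17.8 (neurogenic), both then past the adjusted threshold, and -1.51 (ventral). The ventral difference was -1.27 with at least 1 UMI and -0.462 with another thinning. The difference in median UMIs was 285 from 3000 UMIs, 846 with another thinning and -688 to 480 without 1 library. Signs turned for Doc2 (0.0525), Tollo (-0.16), peb (0.12), h (-0.10) and Ilp4 (-0.25) with exactly 1 UMI, pgc (-0.22) and Ilp4 (-0.0004) with at least 1, h from 10000 UMIs (-0.10), and Ilp4 between 3000 and 5000 UMIs (-0.0488) and outside 4 gates (-0.0137). The causes were not tested. The 16 genes of largest change kept their direction wherever they were tested. They had been chosen for moving the same way in all 7 libraries, so fits that reuse the same sums could hardly turn it. The odd sums, at 340359 UMIs or more, limit which low genes can be tested.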
